A study of Drosophila melanogaster with 2 samples.

Results

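The genes brat, pum, nos, eIF4EHP and mei-P26 encode translational repressors of Drosophila melanogaster, and the binding sites of the zinc finger protein CG17568 were read out at these 5 of the 13968 annotated protein-coding genes. All summits from 2000 bp before to 2000 bp after each gene body were taken. The set was put together with the peaks of this experiment known and was in part selected on peak signal, so positions, signals and replicate recovery are a description without a test. The 5 windows held 18 of the 3396 peaks that passed the authors' irreproducible discovery rate (IDR) step, with 8 at pum, 5 at brat, 4 at eIF4EHP, 1 at mei-P26 and 0 at nos.

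Chromatin immunoprecipitation followed by sequencing had been done on whole embryos of mixed sex, 0 to 20 h old, from 1 transgenic fly line that stably expresses CG17568 with GFP at the C terminus. There was 1 group of 2 biological replicates and no other genotype or treatment. Which promoter drives the transgene is not stated in the labels. The labels name the assay as transcription factor ChIP-seq but also call both samples input controls. They were read here as ChIP, and every value below holds only under that reading. Whole embryos mix all tissues, so a peak does not say in which cells the site was occupied. Peak signal is the authors' own value, and no source states its scale. It served here to order the peaks of each list, with rank 1 the highest. Depth is unknown, because the lists give peaks and not reads.

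These proteins act on mRNA and not on DNA. Pum, a PUF family protein, and Nos, a zinc finger protein made at the posterior pole of the egg, bind the maternal hunchback mRNA together. Brat, a TRIM-NHL protein, acts with them on this mRNA. Brat in turn contacts eIF4EHP, a relative of the cap-binding factor eIF4E that occupies the mRNA cap without binding eIF4G, so that translation cannot start. eIF4EHP also joins Bicoid on caudal mRNA. Brat is further known as a brain tumour suppressor that limits neural stem cell growth, and Mei-P26 is its TRIM-NHL relative in the ovarian germline, where it works with Bam, Bgcn and Sxl.

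The sequences of 5 summit windows, read from the Release 6 genome (dm6) on the plus strand, are shown because they are the highest peaks of brat and eIF4EHP and the 3 intronic windows of pum and eIF4EHP that hold the 8-mer ATATTTAC, described further down. Each is 101 bases long with the summit at base 51 and touches no annotated exon. Capitals mark matches, on either strand, to GAGAG, to TATAAA or to the 8-mers ATATTTAC and AATATTTG.
brat intron, chr2L:19165100-19165200: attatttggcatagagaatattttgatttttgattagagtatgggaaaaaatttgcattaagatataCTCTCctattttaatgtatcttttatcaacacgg
eIF4EHP upstream, chr3R:24109149-24109249: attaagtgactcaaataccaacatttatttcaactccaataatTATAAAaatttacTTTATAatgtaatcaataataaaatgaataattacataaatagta
eIF4EHP intron, chr3R:24099076-24099176: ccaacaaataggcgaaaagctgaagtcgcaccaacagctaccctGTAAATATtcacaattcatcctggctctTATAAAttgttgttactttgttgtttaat
pum intron 3, chr3R:9230308-9230408: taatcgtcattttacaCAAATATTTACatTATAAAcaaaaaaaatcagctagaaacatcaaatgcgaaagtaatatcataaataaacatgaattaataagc
pum intron 8, chr3R:9127040-9127140: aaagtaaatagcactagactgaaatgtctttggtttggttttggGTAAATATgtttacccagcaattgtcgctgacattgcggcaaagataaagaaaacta

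The gene brat (FBgn0010300, chr2L:19133816-19179758, plus strand) carried the strongest of the 18 peaks, at chr2L:19164985-19165306. Its signal of 1361 ranked 23 in the IDR list. In replicate 1 the matching peak had a signal of 718 and rank 21, with its summit 7 bp away. In replicate 2 the signal was 631, the rank 30 and the summit 25 bp away. Both replicates thus placed it near the very top of their lists. Of all protein-coding genes, 0.329% (46 genes) had a peak at least this strong in the same kind of window. This share, and the like shares given below for the other genes, is over genes of all lengths and is not matched for length. The summit was not at the start of the gene. It lay 31334 bp into the gene body, in intron 2 of 4 of the transcript brat-RE, an intron of 20.2 kb, and 717 bp upstream of the internal transcription start site (TSS) of the transcript brat-RF.

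A further peak of brat lay 1145 bp from the strongest, at chr2L:19166097-19166492, in the 5' UTR and 428 bp downstream of the same internal TSS. Its signal of 272 ranked 894 in the IDR list, 702 in replicate 1 and 1058 in replicate 2. Another peak, at chr2L:19158335-19158730, had its summit 7 bp upstream of the other internal TSS, from which brat-RB and brat-RC start. It ranked 1440 with a signal of 208, and the replicates differed more here, with rank 2748 in replicate 1 and 967 in replicate 2. The lncRNA:CR44977 overlaps this summit on the opposite strand. Both internal starts of brat therefore had a peak within 500 bp, while the outermost TSS, used by brat-RA and brat-RE, had none.

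The remaining brat peaks were in intron 1 of brat-RE, 3116 and 8102 bp downstream of the outermost TSS. Their signals of 185 and 173 ranked 1768 and 1975. The summit at 3116 bp was 1699 bp upstream of the TSS of Polr1D, a gene for a subunit shared by RNA polymerases I and III. All 28 pooled summits of the brat window lay at or before 32479 bp from the gene start, which is the place of the peak of signal 272. The remaining 13464 bp of the gene held 0 summits in the pooled list and in replicate 2, and 2 in the relaxed list of replicate 1.

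The gene of the tagged protein itself lies at this 3' end. CG17568 (chr2L:19179749-19181702, minus strand) overlaps the end of brat by 10 bp in the annotation. The strongest brat summit was 14599 bp from the CG17568 gene and the nearest IDR summit within brat 13454 bp. No list had a summit within CG17568. The labels do not say which genomic DNA the transgene carries, and its part in the brat peaks was not tested.

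**Figure D1:**
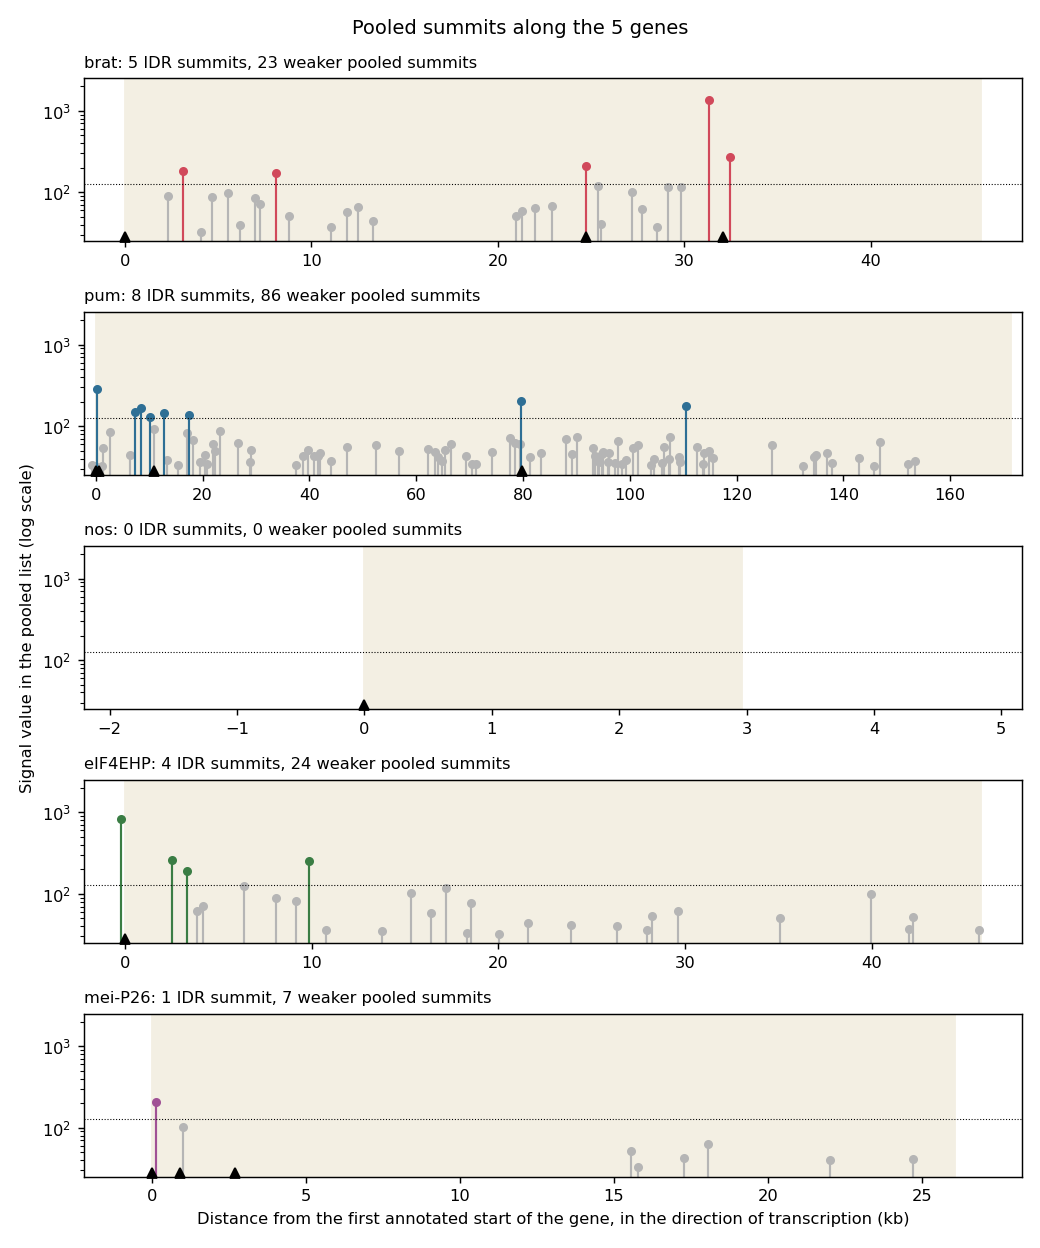
Summits of the pooled list along each gene, from 2 kb before to 2 kb after the gene body (shaded), plotted as signal value on a log axis against distance from the first annotated start in kb. Coloured stems are IDR peaks, grey stems weaker pooled peaks, triangles annotated TSSs and the dotted line the lowest IDR signal of 127. The highest stem is that of brat near its internal starts, the IDR stems of eIF4EHP stand at its 5' end, and nos has none.

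The gene eIF4EHP (FBgn0053100, chr3R:24063077-24108960, minus strand) had its strongest peak just outside the gene, at chr3R:24109017-24109372, with a signal of 820 and rank 92. The matching peaks had a signal of 377 and rank 113 in replicate 1 and a signal of 450 and rank 72 in replicate 2, and their summits were 51 and 3 bp away. In the same window, 1.3% of protein-coding genes had a peak at least as strong. The summit was 239 bp upstream of the single TSS of eIF4EHP and 137 bp upstream of the TSS of CG18428 on the opposite strand. It sat between these divergent starts, so the data do not assign it to either gene. Its window was the most AT-rich of the 18, with a GC content of 16.8%, and only 1.03% of all IDR windows (35) were at or below that value.

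The other 3 IDR peaks of eIF4EHP lay inside the gene, and 2 of them were 133 and 708 bp from the start of a nested gene. Syx1A, which encodes the synaptic vesicle fusion protein Syntaxin 1A, is annotated on the same strand within eIF4EHP. The peak at chr3R:24105432-24105827 (signal 192, rank 1645) had its summit in the 5' UTR of Syx1A, 133 bp downstream of the Syx1A TSS and 3330 bp downstream of the eIF4EHP TSS. The peak at chr3R:24106395-24106523 (signal 263, rank 932) was 708 bp upstream of Syx1A and 920 bp upstream of CG10694, in intron 2 of 3 of eIF4EHP-RB. The last, at chr3R:24099089-24099245 (signal 251, rank 1006), was in intron 3, an intron of 33.2 kb, 9834 bp from the eIF4EHP TSS and 6637 bp from that of Syx1A. All 3 ranked higher in replicate 2 (ranks 1258, 883 and 842) than in replicate 1 (ranks 2803, 1287 and 1617).

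At pum (FBgn0003165, chr3R:9066343-9237682, minus strand) there were more peaks than at the other 4 genes, but the highest was far below those of brat and eIF4EHP in rank. The gene is 171.3 kb long and has 4 distinct annotated starts. Its strongest peak, at chr3R:9237424-9237636, had a signal of 287 and rank 808, with rank 760 in replicate 1 and 914 in replicate 2. The summit lay 142 bp downstream of the outermost TSS, that of pum-RA and pum-RD, in intron 1 of pum-RA. The next start, that of pum-RC and pum-RG, is 657 bp downstream of the outermost TSS, so the summit lay between these starts. A peak at least as strong was found at 7.93% of protein-coding genes of all lengths, most of which are far shorter than pum (10476 of 13968 are under 5 kb). Another peak, at chr3R:9157830-9158225 (signal 203, rank 1490), had its summit 78 bp upstream of the innermost TSS, from which pum-RE, pum-RF and pum-RH start. It ranked 1493 in replicate 1 and 2119 in replicate 2.

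Intron 3 of pum-RG, 13.3 kb long, held 5 of the 8 IDR summits of pum within 10094 bp. In order of transcription they lay at chr3R:9230160-9230555, chr3R:9229231-9229359, chr3R:9227251-9227646, chr3R:9224791-9225186 and chr3R:9220066-9220461. They were weak, with signals of 148, 169, 129, 144 and 135. Their ranks in replicate 1 were 4007, 2138, 4893, 2817 and 6441, and in replicate 2 they were 1843, 1973, 2719, 4336 and 1881. Only the peak of signal 169 was among the 3396 highest of both replicates, and each of the other 4 was among them in 1 replicate. The count at pum therefore moved with the library, from 8 in the IDR list to 5 among the highest 3396 peaks of replicate 1 alone and 9 among those of replicate 2 alone. Across the genome, 112 runs of 5 consecutive IDR summits fitted into 10094 bp, the span seen at pum, 3.3% of the number of IDR summits. Runs of consecutive summits can share summits, so 112 need not be a number of separate clusters. The internal TSS of pum-RB lies within this stretch of intron 3, and the nearest IDR summit was 609 bp upstream of it. A pooled summit below the IDR threshold, with a signal of 91.9 and rank 5775, lay 127 bp downstream of that TSS. It was matched at rank 4366 in replicate 1 and 10581 in replicate 2. The noncoding gene lncRNA:CR45196 is also in this stretch, with the summit of signal 169 inside it, 1150 bp from its TSS.

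The last IDR peak of pum was far from any start, at chr3R:9126892-9127287 (signal 178, rank 1892). It lay 30860 bp downstream of the nearest TSS of pum, in intron 8 of pum-RG, which is 132.7 kb long. The replicate summits were 0 and 19 bp away, at rank 1653 in replicate 1 and 2236 in replicate 2.

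At mei-P26 (FBgn0026206, chrX:9163255-9189309, plus strand) the only IDR peak was at chrX:9163199-9163594. Its signal was 207 and its rank 1442, with rank 1581 in replicate 1 and 1542 in replicate 2. A peak at least as strong was found at 12.2% of protein-coding genes. The summit was 142 bp downstream of the outermost TSS, in an annotated 5' UTR. The internal TSS of mei-P26-RD had a summit 113 bp downstream in the pooled list, with a signal of 101 and rank 4921, below the IDR threshold. Replicate 2 alone had a summit 6 bp downstream of that TSS among its 3396 highest, at rank 2840, so that the count at mei-P26 was 2 with replicate 2 alone and 1 with replicate 1 alone.

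At nos (FBgn0002962, annotated as nanos, chr3R:19157238-19160202, plus strand) the pooled list had no summit in the window, and the replicates had 1 relaxed summit each. In replicate 1 it lay 1027 bp downstream of the TSS with a signal of 45.9 and rank 6575. In replicate 2 it lay 954 bp downstream with a signal of 37.6 and rank 9765. In each replicate this was below every IDR peak of the other 4 genes, whose lowest ranks were 6441 in replicate 1 and 4336 in replicate 2. Both summits lay in an intron of nos, which overlaps CG11779 on the opposite strand. The nearest IDR summits outside the window were 2181 and 3926 bp beyond the gene end, 83 bp upstream of the TSSs of CG42359 and of sqz.

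Whether the genes had an IDR peak was read against all protein-coding genes, of which 20.7% (2898) had an IDR summit in the same window, while 4 of the 5 genes did. The share rose with gene length, from 14.4% of genes under 5 kb to 34.1% from 5 to 20 kb, 50.2% from 20 to 50 kb and 61.0% over 50 kb. All 4 genes with a peak are longer than 20 kb, and nos, at 2.97 kb, is in the shortest class. By number of summits, 5 or more as at brat were found at 7.36% of the 707 genes from 20 to 50 kb, and 4 or more as at eIF4EHP at 11.2%. Counts of 8 or more as at pum were found at 6.39% of the 313 genes over 50 kb. The 5 windows held 0.577 IDR summits per 10 kb against 0.254 over the genome, with 1.0 at brat, 0.802 at eIF4EHP, 0.456 at pum, 0.333 at mei-P26 and 0 at nos. Windows of protein-coding genes of like length held 0.34 per 10 kb from 20 to 50 kb, 0.199 over 50 kb and 0.316 under 5 kb. The density at mei-P26 was thus near that of its length class. The pooled list gave 5.06 summits per 10 kb in the 5 windows and 2.24 over the genome. The windows held 158 pooled summits, of which 11.4% were in the IDR list, against 11.3% of all pooled summits.

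**Figure D2:**
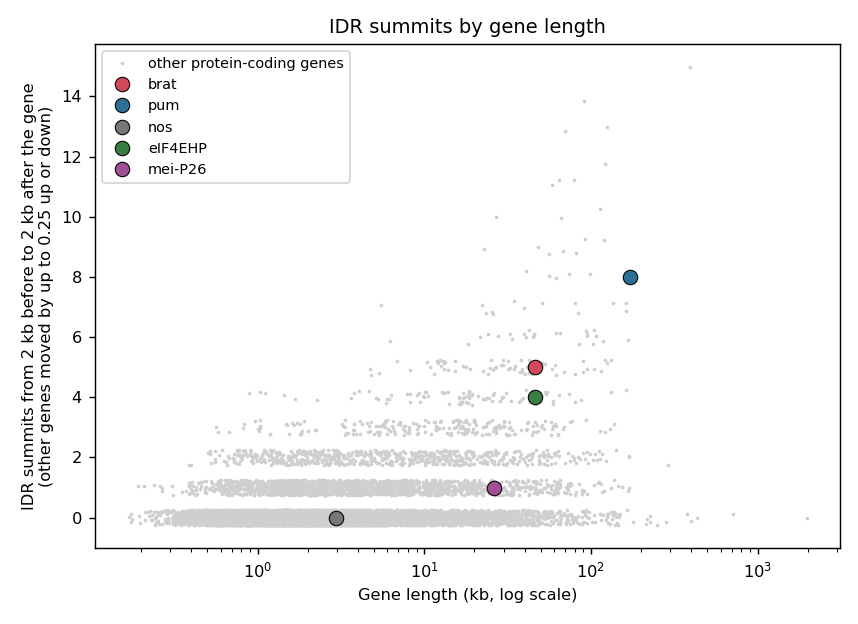
Number of IDR summits in the window of each protein-coding gene against gene length in kb on a log axis. Grey points are the other genes, shifted up or down by up to 0.25 for visibility, and coloured points are the 5 genes. pum with 8, brat with 5 and eIF4EHP with 4 summits lie among the higher genes of their length, while mei-P26 with 1 and nos with 0 lie among the many low ones.

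By position, 7 of the 18 IDR summits (38.9%) lay within 500 bp of an annotated TSS of any gene, near the 42.6% of all IDR summits. For 6 of these 7 a TSS of brat, pum, eIF4EHP or mei-P26 was within 500 bp, and the remaining summit was that of Syx1A. Introns held 13 of the 18 (72.2%, all IDR summits 54.7%), 5' UTRs 3, a noncoding exon 1 and intergenic sequence 1. Of all IDR summits 27.8% were intergenic. Member summits were taken only from gene bodies with 2000 bp on either side. The intron and intergenic shares thus follow in part from the choice of windows. No summit lay in coding sequence or in a 3' UTR, which held only 0.412% and 1.56% of all IDR summits.

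The matches between the replicates and the IDR peaks were complete. All 18 had a summit within 100 bp in both relaxed lists, against 94.5% of all IDR peaks. Among the 3396 highest peaks of each replicate, 14 of 18 (77.8%) were matched in both, against 66.5% overall. The 4 that were not are all in intron 3 of pum. The distance to the matching summit had a median of 16.0 bp and a maximum of 74 bp in replicate 1, and a median of 6.0 bp and a maximum of 53 bp in replicate 2. Of the 140 pooled summits below the threshold in these windows, 61 (43.6%) were found in both replicates, against 37.1% of all 26604 such peaks. The genes differed here: the share was 65.2% at brat (15 of 23) and 54.2% at eIF4EHP (13 of 24), 42.9% at mei-P26 (3 of 7) and 34.9% at pum (30 of 86), which holds most of these summits and lies below the share of all such peaks. The IDR list is the top of the list pooled from both replicates, so recovery follows in part from how the peaks were selected.

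**Figure D3:**
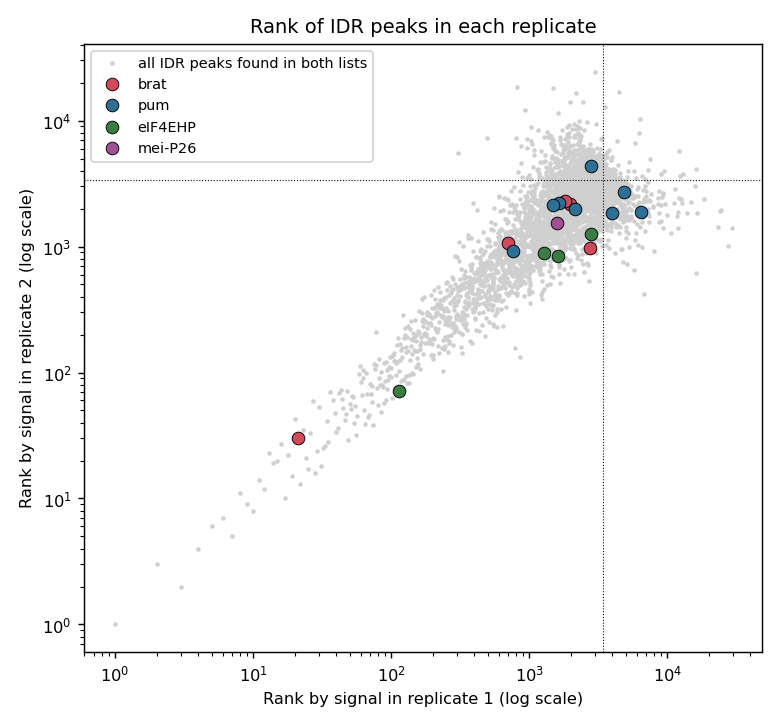
Rank by signal of each IDR peak in replicate 1 and in replicate 2, both on log axes, where rank 1 is the strongest. Grey points are all IDR peaks found in both lists, coloured points those of the named genes, and dotted lines mark rank 3396. The strongest brat peak (ranks 21 and 30) and the strongest eIF4EHP peak (113 and 72) stand apart from the other 16 points, and the 4 points beyond a dotted line belong to pum.

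The threshold fell among peaks of these genes. The lowest member peaks inside the IDR list were 3 in intron 3 of pum, with signals of 144, 135 and 129, where the list ended at 127. Just outside were a summit in eIF4EHP that overlaps the 3' UTR of Syx1A, with a signal of 126 and rank 3469, a summit in brat with a signal of 118 and rank 3801, and another in eIF4EHP with a signal of 118 and rank 3846. The brat summit had no match within 100 bp in replicate 1.

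Peaks with the most similar ranks were sought by the distance between log10 ranks over 3 lists, namely the pooled list and both replicates. Closest to the strongest brat peak were those near CR46447 (2578 bp downstream of its TSS, distance 0.1) and mRpL41, a mitochondrial ribosomal protein gene (132 bp upstream, 0.15). Closest to the strongest eIF4EHP peak were those at trh, a tracheal transcription factor gene (299 bp upstream, 0.038), and at Atf3, a bZIP transcription factor gene (215 bp upstream, 0.082). For pum they were lncRNA:CR45937 (1849 bp upstream, 0.022) and ball (74 bp downstream, 0.024), and for mei-P26 they were ZnT86D (163 bp upstream, 0.01) and hzg (106 bp downstream, 0.015).

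In sequence, the 18 windows had a median GC content of 33.7%, the same as all IDR windows, and ranged from 16.8% at eIF4EHP to 51.5% at the inner promoter of pum. The 5 8-mers with the highest share at IDR summits relative to their flanks were TAGGTAAA, AATATTGA, ACCGGAAA, ATATTTAC and AATATTTG, each counted on both strands. ATATTTAC was in 3.71% of IDR windows and 0.883% of flanking windows, and AATATTTG in 4.53% and 1.09%. These 2 overlap in part, and at the pum window around summit 9230358 both matches fall in 1 stretch of 11 bases. At least 1 of the 5 8-mers was in 4 of the 18 windows, against 11.1% of all IDR windows, 5.98% of weaker pooled windows and 2.83% of flanks. The 8-mers were chosen for a high share in these same IDR windows, the 18 included, relative to flanks. The lower share in flanks therefore follows from that choice. The 4 windows were 2 of pum and 2 of eIF4EHP, the latter at the intron 3 peak and at the Syx1A start. Neither of the strongest peaks, of brat and of eIF4EHP, held any of them. The leading 8-mers depended on the peaks used. Ranked anew, 3 of the 5 were the same with replicate 2 alone and 2 with replicate 1 alone. ATATTTAC and AATATTTG, the only ones of the 5 found in member windows, were kept in neither of these rankings. The 5 found with replicate 1 alone were in 0 member windows, against 3 with replicate 2 alone. Windows of 25 bp to either side gave 3 of the same 5, ATATTTAC and AATATTTG among them, and windows of 100 bp gave 0.

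Of the simple motifs searched on both strands, TATAAA was in 5 of the 18 windows against 22.2% of all IDR windows and 12.0% of flanks. Those 5 windows belonged to pum (2) and eIF4EHP (3), and the strongest eIF4EHP window held 2 matches. GAGAG, the core of GAGA factor sites, was in 2 windows, both of brat and including its strongest peak, against 12.0% of all IDR windows and 17.1% of flanks. CAGGTA (Zelda), TATCGATA (DRE) and CAGCTG (an E-box) were in none of the 18. They were in 2.09%, 0.471% and 4.15% of all IDR windows and in 2.16%, 0.398% and 4.64% of flanks. A match describes the letters only.

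Other genes of the same pathway had IDR peaks in 22 of 58 cases (37.9%) over 6 lists, against the 20.7% of all protein-coding genes. The listed genes are longer, with a median length of 6.07 kb (9.62 kb for the repressed mRNAs) against 2.16 kb. Of protein-coding genes from 5 to 20 kb, 34.1% had an IDR summit, and of those under 5 kb 14.4%. The 58 genes range from under 5 kb to over 50 kb, and no share matched to their lengths was made. In the list of mRNAs known to be repressed by these proteins, 7 of 10 genes had an IDR summit in the window and 3 of 10 within 500 bp of their own TSS, where the share of all protein-coding genes is 10.1%. The strongest IDR summit of this list was at CycB, with a signal of 998 and rank 60. CycB is the mitotic cyclin gene whose mRNA Pum and Nos repress in the germline. The CycB summit was intergenic, 3338 bp downstream of the nearest CycB TSS and outside the gene. The maternal gradient gene cad had a signal of 308 in an intron, 10086 bp from its TSS. Mad, which encodes the Dpp pathway Smad, had a signal of 258 at 656 bp upstream of a TSS, in an intron. The anterior determinant gene bcd had a signal of 210 at 149 bp upstream of its TSS. The gene hb, named here after its values were seen because its mRNA is the classic target of Pum, Nos and Brat, had a signal of 175 and rank 1937 at 300 bp downstream of a TSS, in an intron.

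The germline list had a median gene length of 5.43 kb. In it 4 of 8 genes had an IDR summit, against 20.7% of all protein-coding genes and 34.1% from 5 to 20 kb. The strongest, near vas, which encodes a germ plasm RNA helicase, had a signal of 718 and rank 124, but it was 83 bp from the TSS of TfIIS and 982 bp upstream of vas. Sxl, the sex determination gene and a partner of mei-P26, had 3 IDR summits, the highest with a signal of 372 at 421 bp downstream of a TSS. piwi had a signal of 231 at 372 bp upstream of its TSS, where CG12253 starts 14 bp away. The summit at osk (signal 137) was in an intron of ScsbetaA.

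Genes for repressor partners and mRNP proteins had a median length of 7.67 kb. IDR summits were found at 6 of these 19 (31.6%), against 20.7% of all protein-coding genes and 34.1% from 5 to 20 kb. The highest was at orb, the CPEB homologue, with a signal of 451 at 215 bp upstream of its TSS and 130 bp upstream of Cdc16. Hrb27C, an hnRNP gene, had a signal of 291 at 922 bp downstream of a TSS. gw, the GW182 gene of microRNA silencing, had a signal of 232 at 189 bp upstream of a TSS. Dcp2, the decapping enzyme gene, had 3 summits, the highest with a signal of 215, 818 bp upstream of its TSS and within dbo.

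Genes for eIF4E and eIF4G proteins and their binders had a median length of 2.84 kb. Of these, 3 of 11 (27.3%) had an IDR summit, against 20.7% of all protein-coding genes and 14.4% under 5 kb. Thor, the 4E-BP gene, had a signal of 251 at 119 bp upstream of its TSS. The summit in the eIF4E1 window (signal 160) was in the 5' UTR of CG4080, 2729 bp from the eIF4E1 TSS. The one at eIF4G2 (signal 137) was 113 bp downstream of a start shared with CG33111 and had no match in replicate 1. The CCR4-NOT deadenylase genes had a median length of 5.18 kb. An IDR summit was found at 1 of 8 (12.5%), against 20.7% of all protein-coding genes. The share was 34.1% from 5 to 20 kb and 14.4% under 5 kb, and the list held genes of both classes. The summit was at Pop2, a gene of 4.52 kb, with a signal of 167 at 111 bp upstream of its TSS. The number of deadenylase genes with a summit was 3 with replicate 1 alone and 0 with replicate 2 alone. Of the other TRIM-NHL genes, of median length 16.3 kb, wech was the 1 of 2 with a peak. Its signal of 841 ranked 88, and it was intergenic, 7581 bp downstream of the nearest wech TSS and 1585 bp upstream of Aldh-III.

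**Figure D4:**
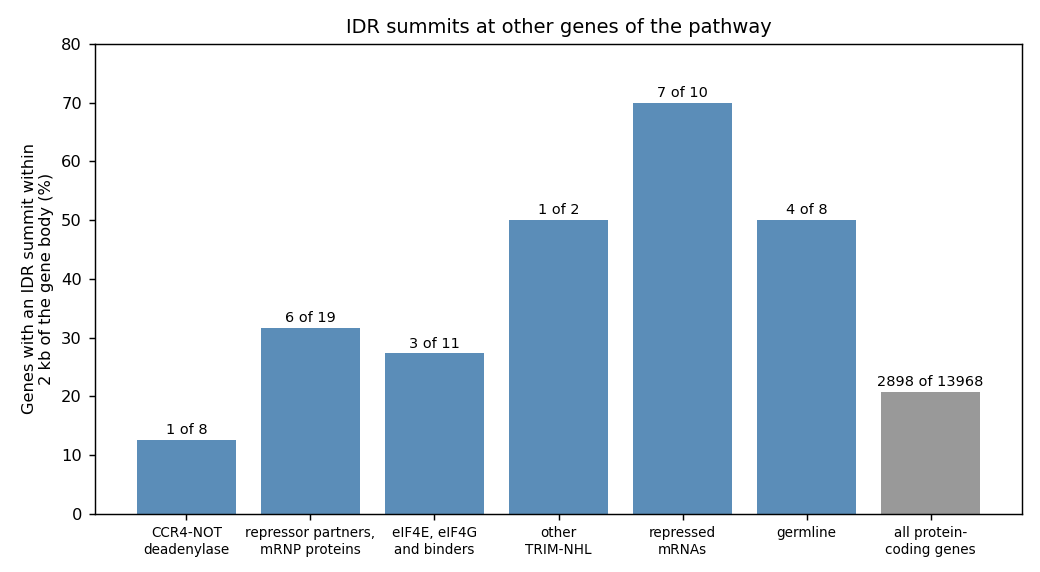
Share of genes in each list with an IDR summit from 2 kb before to 2 kb after the gene body, with the number of genes above each bar, and the same share over all protein-coding genes in grey. Bars start at 0. The share was 70.0% for the 10 repressed mRNAs and 12.5% for the 8 deadenylase genes, with 20.7% over all protein-coding genes. The lists were not matched to all genes by length. Of genes from 5 to 20 kb 34.1% had a summit, and of genes under 5 kb 14.4%.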

How the data were processed

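The authors deposited 4 narrowPeak lists on dm6: relaxed lists of 30000 peaks for each replicate and for both pooled, and an IDR list of 3396 peaks made from them, per the text deposited with the files. The peak signal (a score of no stated scale), the −log10 q-value and the summit offset are the authors' deposited values. No source used here names the peak caller, the aligner or the IDR threshold. Exactly 3396 pooled peaks reached the lowest IDR signal.

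Summits (1-based) were placed on Release 6 with Ensembl release 115 models (BDGP6.54), without transposable elements, using Python 3.11.15 and pandas 2.3.3. nos was matched as nanos, and Dcp1 and Dcp2 as DCP1 and DCP2, through the RefSeq gene table. A promoter summit lay within 500 bp of a TSS, and replicate summits matched within 100 bp. For each 8-mer, the share of windows of 101 bp at IDR summits, if at least 1%, was divided by that of windows centred 300 bp to either side. Counting, matching and 8-mer ranking were tested on simulated data. The members and lists were chosen with earlier results of these data known. Named were all member IDR summits, the next 3 summits where a result needed them, TSSs within 2000 bp of a member summit, up to 4 genes per list (and hb, added after its values were seen) and 2 genes of similar rank per member. No statistical test was made. Alternatives changed the gene window, the threshold, the matching distance, the TSS distance, the motif window and the replicates used.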

Additional observations from a re-analysis of the deposited data

How the results depend on the processing

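Depth is unknown and there are 2 replicates, so no interval could be put on a peak. Among the 1698 highest IDR peaks the 5 windows held 10 summits (0.32 per 10 kb), with 3 at brat and 2 at pum, and 13 pathway genes had one, as did 13.4% of protein-coding genes. With windows of 5000 bp on either side, nos had 2 summits, mei-P26 had 2, the density was 0.672 per 10 kb and the background share 29.5%; with 500 bp that share was 15.3%, and over all annotated genes it was 19.6%. With the 3396 highest peaks of a single replicate, summits over the 5 windows ranged from 18 to 21, at brat from 6 to 7, at eIF4EHP from 4 to 5, at pum from 5 to 9 and at mei-P26 from 1 to 2, density from 0.577 to 0.673 per 10 kb and the background share from 21% to 22.5%. The 5 leading 8-mers were in 2 member windows within 25 bp of the summit, and those ranked anew in a single replicate were in 0 to 3. The cause was not tested for these changes, apart from the smaller or larger lists and windows themselves.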

Other observations

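At nos the replicate summits were 73 bp apart, in an intron of nos, while the pooled list had no summit in the window. Over the genome, 13221 summits of replicate 1 had a summit of replicate 2 within 100 bp, and 265 of these pairs (2.0%) had no pooled summit within 200 bp of either. Of those pairs, 82 had ranks at least as high as the worse rank at nos, 9765.

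Each gene was divided at its midpoint, with upstream summits counted to the 5' part. That part held 4 of 4 IDR summits and 18 of 28 pooled summits of eIF4EHP. At pum it held 7 of 8 IDR and 52 of 94 pooled summits. At brat it held 2 of 5 IDR summits but, as at eIF4EHP, 18 of 28 pooled summits. At mei-P26 it held the 1 IDR summit and 2 of 8 pooled summits. The same division was not made over all genes.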
